A study of Mus musculus with 12 samples.

Results

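The stretch of mouse chromosome 1 that lies directly below Uhmk1, on its lower-coordinate side, was examined probeset by probeset in newborn brains with and without the kinase KIS, the protein that Uhmk1 encodes. The members were the main probesets of the array placed on chromosome 1 with a start between 162.13 and 172.13 Mb, leaving out those of Uhmk1, Gas5 and Atp1b1. There were 884 such probesets of 223004 main probesets on the array, and 24 probesets of the genes left out. They carried 70 gene symbols, and 5 of them had no symbol. A filter on spread between brains rejected 83 members and kept 801. The rule used position and these 3 gene symbols and no signal, but it was set with earlier results of these data known.

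The 12 arrays were hybridised with RNA from total brains of 12 newborn female mice, 6 of genotype KIS +/+ (wildtype) and 6 of genotype KIS -/- (KIS-ko). Each of 6 litters gave 1 wildtype and 1 KIS-ko brain. The KIS -/- animals lack KIS in the whole body and not in a chosen cell type, and the whole brain was taken. The line had been kept earlier in a mixed C57Bl/6-129SV background and was then crossed repeatedly to C57BL6/N. Each array was 1 animal, so that the spread between brains is biological as well as technical.

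When a gene is targeted in stem cells of one strain and the mice are then crossed to another, DNA of the first strain remains around the targeted site. Each generation of crossing can only shorten that stretch by a recombination close to the site, so neighbours of the target are the last part of the genome to be exchanged. Littermates of opposite genotype can therefore differ at the genes next to the target as well as at the target. In these arrays the Uhmk1 genotype and the strain of origin of the linked DNA cannot be told apart, and no strain marker was measured.

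An exon array reads a transcript with many probesets, each usually of 4 short probes within 1 exon. The signal measures binding to these probes, so that a sequence difference under them can alter it at an equal transcript level; whether any lies under the probes was not tested. Probeset values are PLIER signals, which the authors estimated on a linear scale after quantile normalization. All differences below are KIS-ko minus wildtype means of log2(signal + 16), so that small signals give compressed differences. The gene value is the mean of these log2 values over the kept probesets of a symbol. Distance was counted downwards from the lower end of Uhmk1, at 172130014 in the coordinates of the deposited table, whose genome build is not named.

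The knockout was plain on the arrays: the gene value of Uhmk1 lay between 10.9 and 11.1 in wildtype and between 8.62 and 8.98 in KIS-ko, a log2 difference of -2.11 ± 0.068 (SE, limma adjusted p = 3.2e-07). Array medians ran from 488 to 543 in wildtype and from 475 to 534 in KIS-ko, and the KIS-ko brain had the lower median in every litter but litter 4. The median difference over all main probesets was -0.040 on the log2 scale. Markers of neurons, the defining cells of this tissue, summed to signals of 40551 to 44850 on the 12 arrays.

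Within 1 Mb of Uhmk1 lie 6 genes with probesets. In order of distance they are Uap1, Ddr2, Hsd17b7, Rgs4, Rgs5 and Nuf2. Uap1 makes UDP-N-acetylglucosamine, the sugar donor for glycosylation. Ddr2 is a receptor tyrosine kinase that binds fibrillar collagen. Hsd17b7 reduces a keto group in cholesterol synthesis and also acts on sex steroids. Rgs4 and Rgs5 speed GTP hydrolysis by G-alpha subunits and so shorten signalling from G protein-coupled receptors; Rgs4 is found in neurons and Rgs5 is a marker of pericytes. Nuf2 is a kinetochore protein that holds chromosomes to the spindle in mitosis.

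The start regions of a few of these genes are printed to show what the stretch holds: the paired neighbours Rgs4 and Rgs5, Hsd17b7, whose signal was higher in KIS-ko, and Nuf2, whose signal was lower. Each is the 250 bases before the gene start that RefSeq lists on GRCm38.p6, a build that is not the one of the array coordinates. Capitals mark TATAAA (the TATA box), CCAAT and GGGCGG (the GC box) on either strand.
Rgs4, chr1:169747643-169747892, minus strand: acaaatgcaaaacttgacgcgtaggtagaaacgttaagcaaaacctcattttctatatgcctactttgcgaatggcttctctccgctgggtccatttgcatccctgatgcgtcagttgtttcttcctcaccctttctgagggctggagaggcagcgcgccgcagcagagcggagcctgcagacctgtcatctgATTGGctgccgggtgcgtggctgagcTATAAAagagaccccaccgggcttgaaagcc
Rgs5, chr1:169655251-169655500, plus strand: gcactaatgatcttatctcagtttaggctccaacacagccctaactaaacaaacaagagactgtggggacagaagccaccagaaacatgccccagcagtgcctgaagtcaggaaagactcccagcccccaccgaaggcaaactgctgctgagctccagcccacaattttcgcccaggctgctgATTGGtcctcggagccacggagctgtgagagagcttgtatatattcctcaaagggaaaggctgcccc
Hsd17b7, chr1:169969206-169969455, minus strand: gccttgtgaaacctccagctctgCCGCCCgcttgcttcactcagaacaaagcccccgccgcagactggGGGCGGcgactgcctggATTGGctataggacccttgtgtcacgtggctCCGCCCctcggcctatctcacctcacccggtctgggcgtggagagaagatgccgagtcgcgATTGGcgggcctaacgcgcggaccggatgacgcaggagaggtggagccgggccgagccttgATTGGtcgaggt
Nuf2, chr1:169531465-169531714, minus strand: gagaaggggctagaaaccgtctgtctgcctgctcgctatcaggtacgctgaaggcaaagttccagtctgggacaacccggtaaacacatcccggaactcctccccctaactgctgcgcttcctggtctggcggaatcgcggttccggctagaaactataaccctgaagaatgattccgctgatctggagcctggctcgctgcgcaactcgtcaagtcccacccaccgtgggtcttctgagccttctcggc
Among 32851 such windows, 12.4% hold TATAAA, 33.8% CCAAT and 32.7% GGGCGG. Rgs4 has TATAAA starting 31 bases before the listed start and CCAAT at 57 bases, while Rgs5 has CCAAT at 67 bases. The Hsd17b7 window holds 3 matches of CCAAT and 3 of GGGCGG, and the Nuf2 window holds none of the 3 motifs. These matches are letters in a window and were not related to the signals.

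Over the whole stretch, 1 member probeset passed the adjusted test, a probeset of Ddr2 whose signal fell in KIS-ko. Over all main probesets kept, 0.00484% passed (10 of 206773), 0.00435% as lower. Besides that member, 2 lay in the 10 Mb above Uhmk1, 0 on the other chromosomes, and the remainder belonged to the genes left out. Without the litter term, 2 members passed, the Ddr2 probeset and 1 of Nuf2, while the count over all probesets was 26. Signals of the genotypes did not overlap at 14 members, which is 1.75% of the members kept against 0.174% of all main probesets. Of these, 13 were lower in KIS-ko (0.122% of all probesets were) and 1 was higher (0.0513% of all). Without litter 4 the count was 39 of 800 members, against 2.84% of all probesets, and without litter 5 it was 24 of 801, against 0.923%. In both cases the share of all probesets rose by a larger factor than the count of members. A log2 difference of 0.5 or more in size was seen at 13 members, or 1.62% against 0.283% of all; 12 were lower and 1 higher, against 0.192% and 0.0904% of all. An unadjusted p under 0.05 was found for 102 members (12.7%) against 6.63% of all, 81 of them lower and 21 higher, against 4.72% and 1.91% of all. Without litter 4 there were 170 of 800, 141 lower and 29 higher, against 16.3% of all. With arrays centred on their medians the split of the 96 found was 58 lower and 38 higher. The median member difference, -0.042, was close to that of all probesets.

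**Figure D1:**
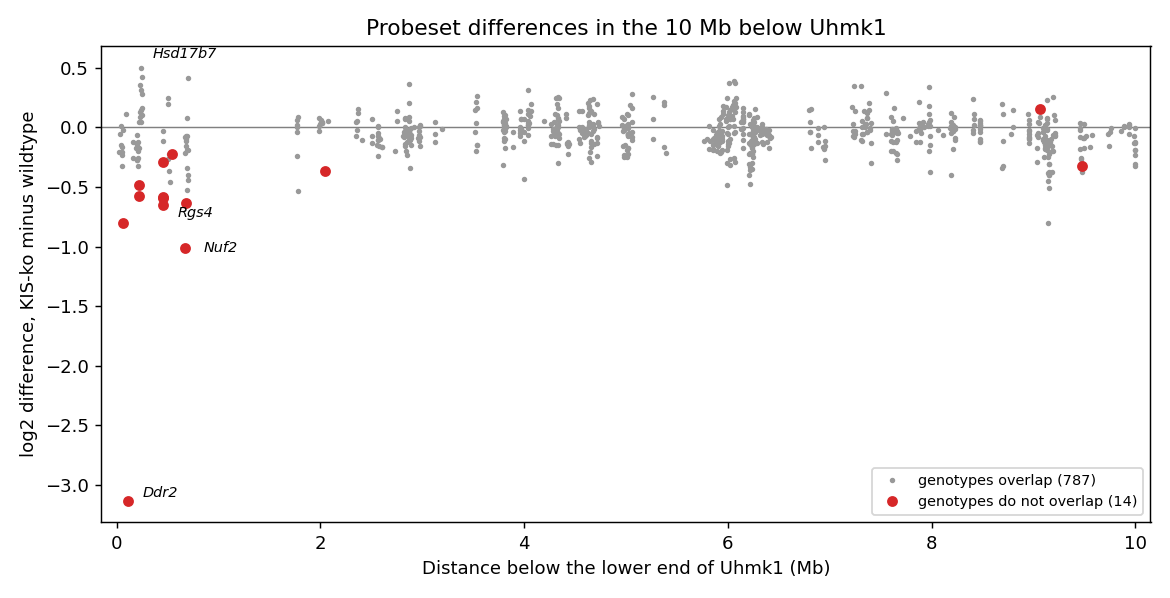
Log2 difference (KIS-ko minus wildtype) of the 801 kept member probesets against distance below Uhmk1 in Mb. Red points are the 14 probesets whose genotypes did not overlap; 11 of them lie within 1 Mb, and the lowest point is the Ddr2 probeset at -3.13.

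The differences were gathered at the near end. Within 1 Mb, 11 of 71 probesets (15.5%, against 0.174% of all) had genotypes that did not overlap, all lower in KIS-ko. An unadjusted p under 0.05 was found for 35 (49.3%, against 6.63% of all). Of those 35, 28 were lower and 7 higher, and with arrays centred on their medians 22 were lower and 10 higher. The median difference there was -0.17. Without Ddr2, 8 of 52 probesets (15.4%) did not overlap and 50% had an unadjusted p under 0.05, so the share did not rest on that gene.

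From 1 to 9 Mb the picture was that of the whole array. Of 631 probesets, 43 (6.81%) had an unadjusted p under 0.05, against 6.63% of all probesets, and 1 did not overlap. The SD of the differences was 0.131 from 1 to 9 Mb and 0.454 within 1 Mb. Counts in this middle stretch moved with single litters, to 100 without litter 4 (15.9%) and to 25 without litter 6 (3.99%), and the share of all probesets moved along, to 16.3% and 3.93%.

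The last 1 Mb, from 9 to 10 Mb, again had more small p-values. Of its 99 probesets, 24 (24.2%) had an unadjusted p under 0.05, 21 lower and 3 higher. Here 2 probesets did not overlap, 1 of Rabgap1l (lower) and 1 of Klhl20 (higher), and none passed the adjusted test. The median difference there was -0.096. Gas5, one of the genes left out, belongs to this end of the stretch.

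For comparison, on the other side of Uhmk1 the 10 Mb above held 1034 kept probesets, of which 5.51% did not overlap and 27.8% had an unadjusted p under 0.05. At 10 to 20 Mb below, these shares were 0.494% and 9.38%, at 10 to 20 Mb above 0.302% and 13.0%, and on the other chromosomes 0.129% and 6.42%. The differences between these shares were not tested, since probesets of a gene are not independent.

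**Figure D2:**
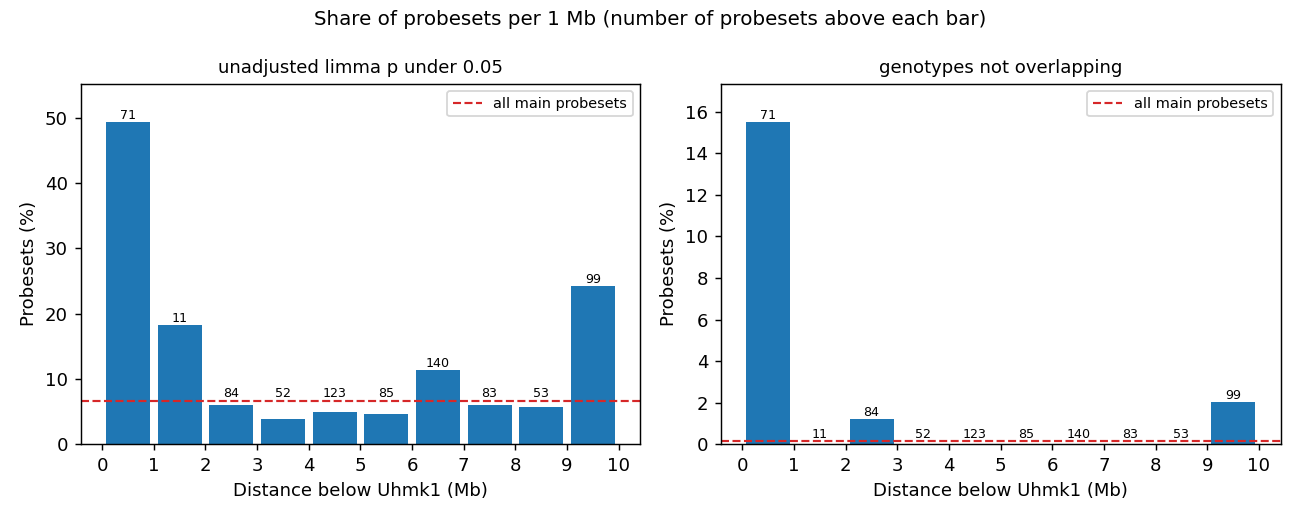
Share of kept member probesets per 1 Mb of distance below Uhmk1, in percent: left, those with an unadjusted limma p under 0.05; right, those whose genotypes did not overlap. Numbers above the bars count the probesets, and the dashed line is the share of all main probesets (6.63% and 0.174%); the bar of the nearest 1 Mb stands at 49.3% and 15.5%.

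The largest single difference of the stretch was at Ddr2 probeset 4948326 (172019006 to 172019070). Its signals ran from 374 to 492 in wildtype (median 383) and from 19.0 to 46.8 in KIS-ko (median 32.4). The lowest wildtype brain was far above the highest KIS-ko brain. The mean was 408 ± 48.0 in wildtype and 32.8 ± 9.05 in KIS-ko (SD, n = 6 each), and the log2 difference was -3.13 ± 0.089 (SE, limma adjusted p = 2.1e-05). Set against the other probesets of Ddr2 in the same brain, it fell by 2.93 on the log2 scale (limma adjusted p = 5.8e-05), the only member among 792 to pass that test, which 0.000987% of all probesets passed. An unadjusted p under 0.05 against the gene was found for 99 of the 792 (12.5%) and for 35 of the 71 within 1 Mb, against 6.09% of all. These values are linked within a gene: the fall of 4948326 lowers the mean that each other Ddr2 probeset is set against. The table marks probeset 4948326 as matching more than 1 similar sequence. Without moderation of the variances the adjusted p of its difference was 0.059, and it was not tested where only probesets matching 1 place, only bright probesets or a stricter limit on spread were kept.

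The rest of Ddr2 was less different. Of its 19 kept probesets 17 were lower in KIS-ko, and 9 of them had an unadjusted p under 0.05. Probesets 4756773 and 4476787, near the 3′ end, did not overlap either. The former had a mean of 845 ± 80.7 in wildtype and 599 ± 66.0 in KIS-ko (adjusted p = 0.328). The latter stood at 857 ± 116 in wildtype and 569 ± 74.6 in KIS-ko (adjusted p = 0.589). The last probeset of the gene was at 524 and 543, with a difference of 0.04. The gene value of Ddr2 differed by -0.35 ± 0.057 (SE) and was lower in KIS-ko in 6 of 6 litters (adjusted p = 0.217). Without probeset 4948326 the mean difference over litters was -0.20 ± 0.136 (SD, n = 6), from -0.42 to -0.061.

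Ddr2 marks fibroblasts of the meninges and vessels. In whole brain fewer cells of a type and less RNA per cell cannot be told apart. The 7 other fibroblast markers, among them Col1a1 and Dcn, had no unadjusted p under 0.05, and their summed signal was 8088 to 8915 in wildtype and 7798 to 8873 in KIS-ko, which overlap. Of markers of endothelium, choroid plexus, neurons and red cells none had such a p, and of 4 astrocyte markers 1 had (Gfap, -0.27), with summed astrocyte signals of 7780 to 8907 and 6978 to 8302, and its part in the Ddr2 values was not tested.

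**Figure D3:**
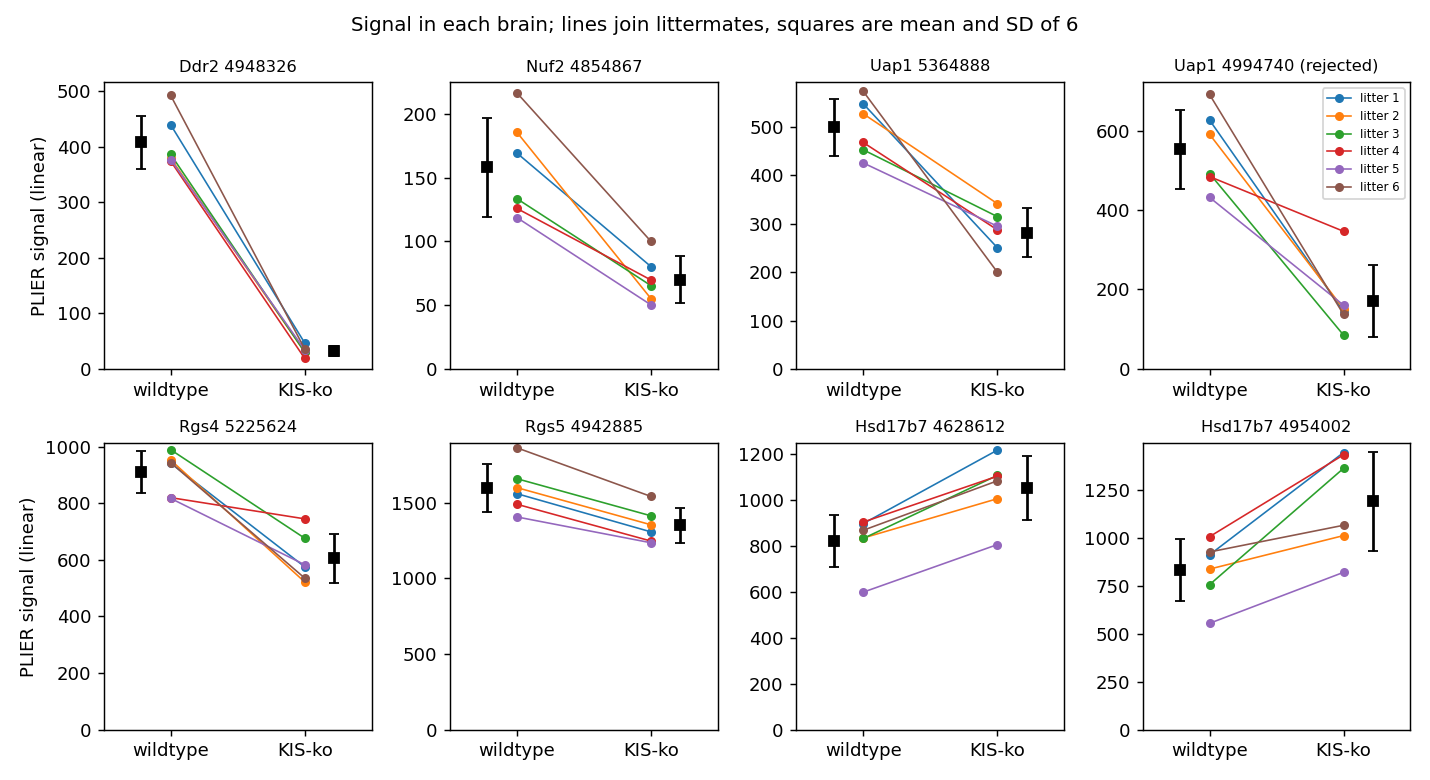
PLIER signal (linear axis from 0) of 8 member probesets in each of the 12 brains; lines join the littermates of litters 1 to 6, and squares with bars are mean and SD of 6 brains. The Ddr2 signals drop from at least 374 to at most 46.8, the Hsd17b7 signals are higher in KIS-ko in every litter, and Uap1 4994740 is a probeset rejected by the filter on spread.

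In Rgs4 the 4 probesets towards the 3′ end did not overlap between genotypes. At probeset 5120501 the signals ran from 844 to 1109 in wildtype (median 1025) and from 538 to 771 in KIS-ko (median 606). Every KIS-ko brain lay below every wildtype brain. The log2 difference was -0.66 ± 0.114 (SE, adjusted p = 0.536), and those of 5025177, 5225624 and 5367028 were -0.59, -0.58 and -0.29.

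The 2 probesets at the 5′ end of Rgs4 gave -0.03 and -0.12, at mean signals of 273 and 250 in wildtype. They were lower in KIS-ko in 2 and 3 of 6 litters. The gene value was 9.49 ± 0.101 in wildtype and 9.11 ± 0.129 in KIS-ko (SD, n = 6 each), a difference of -0.38 ± 0.071 (SE, adjusted p = 0.336). It was the single member gene whose genotypes did not overlap, against 0.211% of all genes, and its difference was -0.57, -0.58, -0.21, -0.21, -0.18 and -0.52 in litters 1 to 6. With dim probesets left out its difference was -0.53 and passed the adjusted test (adjusted p = 0.039). That setting dropped the 2 probesets at the 5′ end, so this value rests on the 4 probesets that did not overlap.

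Rgs5 differed in opposite directions along its length. Its 6 probesets from the 5′ end were lower in KIS-ko, by -0.22 to -0.46, while both probesets at the 3′ end were higher, by 0.20 and 0.25. Signals of probeset 4833996 ran from 2724 to 3272 in wildtype (median 2836) and from 2227 to 2684 in KIS-ko (median 2500). The genotypes were separated there by a narrow gap, between 2684 and 2724. Probeset 5384265, at the other end, had a mean of 1469 ± 169 in wildtype and 1753 ± 234 in KIS-ko and was higher in KIS-ko in 5 of 6 litters. No Rgs5 probeset passed the adjusted test against its gene (adjusted p = 0.355 for 5384265), except with dim probesets left out, where 5384265 passed.

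The gene value of Rgs5 differed by -0.16 ± 0.066 (SE, adjusted p = 0.687) and was lower in 4 of 6 litters. The 8 other pericyte markers, among them Pdgfrb and Kcnj8, had no unadjusted p under 0.05, with summed signals of 6079 to 7122 in wildtype and 6078 to 7174 in KIS-ko.

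Hsd17b7 went the other way. All 11 kept probesets were higher in KIS-ko, by 0.05 to 0.50, and 5 of them had an unadjusted p under 0.05. Signals of probeset 4954002 ran from 554 to 1005 in wildtype (median 874) and from 820 to 1444 in KIS-ko (median 1213). The KIS-ko brain was the higher in every litter, but the KIS-ko brain of litter 5 lay below 4 of the 6 wildtype brains, so the genotypes overlapped. The gene value was 9.53 ± 0.275 in wildtype and 9.77 ± 0.263 in KIS-ko, a difference of 0.23 ± 0.059 (SE, adjusted p = 0.687) and higher in 5 of 6 litters. Across all settings tried it lay between 0.18 and 0.29.

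Nuf2 and Uap1 each had single probesets well below the rest of the gene. Signals of Nuf2 probeset 4854867 ran from 119 to 217 in wildtype (median 151) and from 50.2 to 100 in KIS-ko (median 67.6). Its lowest wildtype signal was above its highest KIS-ko signal. The difference was -1.01 ± 0.099 (SE), and narrowly missed the threshold (adjusted p = 0.054). A second probeset of Nuf2, 5362450, had a mean of 441 ± 37.6 in wildtype and 279 ± 33.7 in KIS-ko (difference -0.63, adjusted p = 0.138).

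Of 17 Nuf2 probesets 15 were lower in KIS-ko, and the gene value differed by -0.24 ± 0.063 (SE, adjusted p = 0.687). Without 4854867 the mean over litters was -0.19 ± 0.168 (SD, n = 6). Its last probeset was dim, with means of 22.7 and 35.3, and was higher in KIS-ko by 0.41.

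Signals of Uap1 probeset 5364888 ran from 426 to 574 in wildtype (median 498) and from 200 to 342 in KIS-ko (median 291). The groups were apart in every brain, with a difference of -0.80 ± 0.131 (SE, adjusted p = 0.435). The gene value of Uap1 differed by -0.21 ± 0.060 (SE, adjusted p = 0.687), lower in 6 of 6 litters, and by -0.15 ± 0.139 (SD, n = 6) without that probeset. A further Uap1 probeset, 4994740, had genotypes that did not overlap but was rejected for its spread in KIS-ko.

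**Figure D4:**
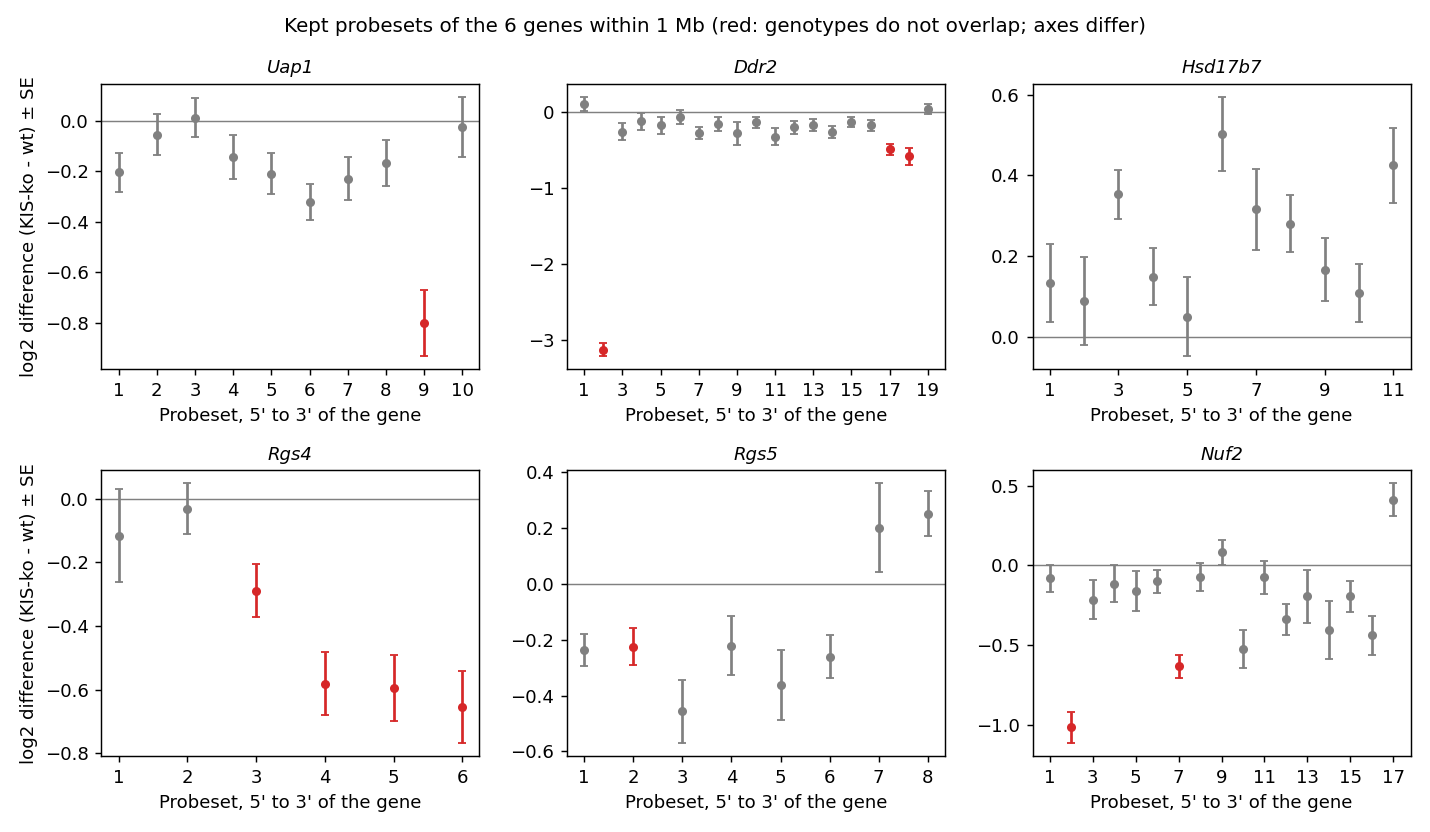
Log2 difference (KIS-ko minus wildtype, ± SE) of each kept probeset of the 6 genes within 1 Mb, ordered from 5′ to 3′; vertical axes differ between panels. Red probesets had genotypes that did not overlap: 1 in Uap1, 3 in Ddr2, 4 in Rgs4, 1 in Rgs5 and 2 in Nuf2, and none in Hsd17b7, where all 11 are above 0.

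At the level of whole genes, 0 of 70 member genes passed the adjusted test by limma, against 0.00570% of all genes (1 of 17546, Uhmk1). An unadjusted p under 0.05 was found for 10 of them, against 6.14% of all genes; 9 were lower and 1 higher, against 4.35% and 1.80% of all genes. All 6 genes within 1 Mb were among these 10, Hsd17b7 as the higher one. Beyond 1 Mb, 4 of 64 genes (6.25%) were, all lower. In every litter the median difference of the probesets within 1 Mb was below that of all probesets, by -0.054 to -0.208.

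**Figure D5:**
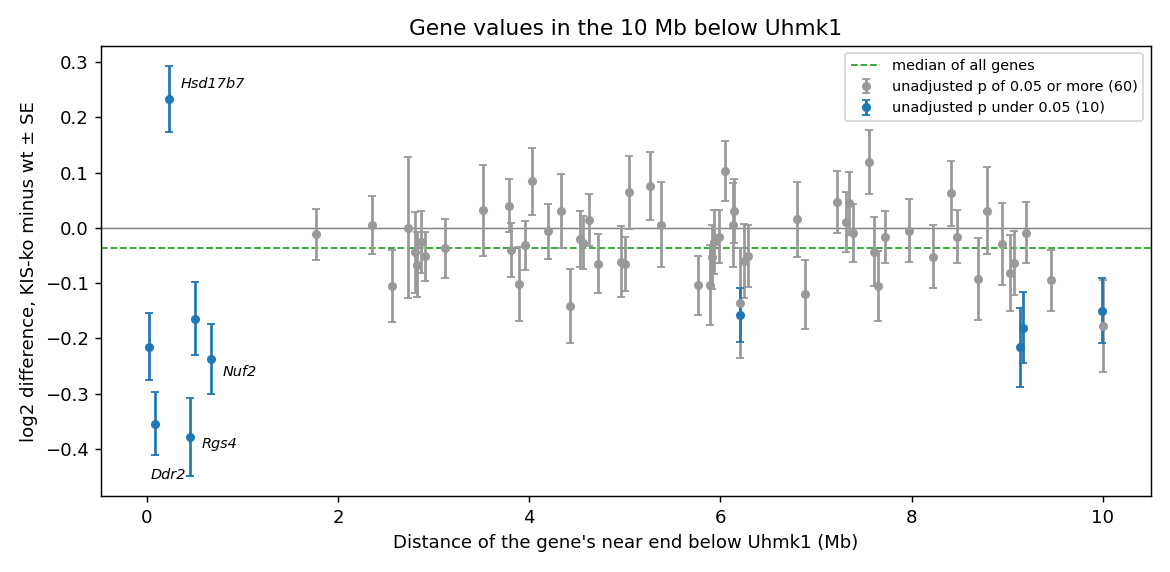
Gene value difference (KIS-ko minus wildtype, log2, ± SE) of the 70 member genes against distance below Uhmk1 in Mb; the dashed line is the median of all genes (-0.036). Blue genes had an unadjusted p under 0.05: 6 of 6 within 1 Mb and 4 of 64 beyond.

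Among the 4 more distant genes were BC055324 (-0.16 ± 0.049), Zbtb37 (-0.18 ± 0.064) and Cacybp (-0.15 ± 0.058; all SE). BC055324 had a median signal of 174. With dim probesets, those with a mean under 713, left out, its difference was 0.12, but only its brightest probeset, 4758922, then remained. Zbtb37 is a zinc finger protein with 6 of 6 probesets lower, and Cacybp binds calcyclin and takes part in protein degradation, with 8 of 8 lower. Mrps14, a protein of the mitochondrial ribosome, is crossed by the lower limit of the stretch and had 2 probesets inside; its gene value, from 5 kept probesets, differed by -0.18 ± 0.083 (SE, adjusted p = 0.687).

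Of the other genes with the most kept probesets in their 1 Mb of distance, those given here differed by -0.095 to 0.014, Rabgap1l in the last 1 Mb by the most. Aldh9a1, an aldehyde dehydrogenase, differed by -0.066 ± 0.059. Mael, which guards germ cells against transposons, gave -0.031 ± 0.044, Adcy10, the soluble adenylyl cyclase, 0.014 ± 0.047, and coagulation factor F5 -0.016 ± 0.047. Dnm3, a dynamin of synapses, gave -0.016 ± 0.047 over 30 probesets, and Rabgap1l, a regulator of Rab GTPases, -0.095 ± 0.055 (all SE, n = 6 litters). Of these, Mael, Adcy10 and F5 had median signals under the dim limit of 713, at 64.5, 79.8 and 114. The probesets that the table names Aph1a at 8.47 Mb, all marked as matching more than 1 sequence, differed by -0.016 ± 0.047; RefSeq lists that gene on another chromosome, so the symbol may not be that of the place.

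Grouped by role, no gene of the stretch passed the adjusted test. Both RGS genes were lower with an unadjusted p under 0.05. Of 7 transcription factors, among them Lmx1a, Rxrg, Pou2f1, Prrx1, Tbx19 and Pogk, none had such a p, and 4 were lower, from -0.12 to 0.06. The 5 flavin-containing monooxygenases had values from -0.009 to 0.05, and the 5 selectin and coagulation genes from -0.016 to 0.10, with none under 0.05. Of 7 genes of membrane traffic 6 were lower, down to -0.10, and none had an unadjusted p under 0.05. The 5 TNF ligand, chemokine and T cell receptor genes lay between -0.092 and 0.08, and the 5 membrane receptor and adhesion genes between -0.10 and 0.08, with none under 0.05. The list headed cell division was a loose one of 4 genes, Nuf2, Tiprl, Cacybp and Klhl20, and is not a reading of mitosis genes. All 4 were lower, Nuf2 and Cacybp with an unadjusted p under 0.05. Of 5 genes of chromatin, RNA and translation all were lower, 2 of them with such a p, among them Zbtb37. Among 3 collagen receptor and matrix genes Ddr2 was lower with such a p, while Dpt and Myoc gave 0.0062 and 0.12. Among 12 metabolic and transport enzymes 1 lower (Uap1) and 1 higher (Hsd17b7) did. The share of all genes that were lower in KIS-ko was 70.0%, the same as in the 70 member genes.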

How the data were processed

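RNA of 12 newborn brains was hybridised to Affymetrix Mouse Exon 1.0 ST arrays. Per the methods and the processing notes, the authors used Affymetrix Expression Console, quantile normalization at the exon level and PLIER. The deposited values are PLIER signals per probeset on a linear scale; tool versions and the genome build are not given in the sources used here. These intensities were deposited without a log. Following the study, a probeset was dropped where SD divided by mean exceeded 0.4 among wildtype or among KIS-ko brains. Main probesets were fitted as log2(signal + 16) with limma 3.58.1 in R 4.3.3, with genotype and litter as terms, moderated variances and Benjamini-Hochberg adjustment over all 206773 kept probesets (or all 17546 genes), at a threshold of 0.05. The litter number comes from the labels; deviations of littermates from their genotype mean correlated between -0.093 and 0.325. For the test within genes, the mean of the other kept probesets of the gene was subtracted in each brain, for genes with at least 3. "Did not overlap" means that every brain of one genotype was above every brain of the other.

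The members and lists were chosen with earlier results of these data known. Genes were named by a rule: those with a called probeset, Ddr2, Rgs4, Rgs5 and Uap1, the gene with most kept probesets in each 1 Mb, and the 10 largest gene differences among genes with at least 3 kept probesets. Other genes are named as members of counts of 5 or fewer or of role lists, and single probesets were picked after their values were seen. Of 70 member symbols, 66 matched RefSeq. The number of arrays limits precision; the scripts were tested on simulated data. Alternatives covered the litter term, pseudocounts of 1 and 64, the filter on spread (none, or 0.2), dim probesets (mean under 713, the 95th percentile of 5222 intron controls), median centring, quantile normalization, probesets matching 1 place, robust and unmoderated variances, all probeset types, gene summaries, and each litter left out. Figures were drawn with matplotlib 3.10.9. Start regions came from RefSeq tables on GRCm38.p6; probe sequences were not used here. Results of some single genes are not reported here; they remain in the counts.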

Additional observations from a re-analysis of the deposited data

Results flagged for a closer look

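In the wildtype brains, Nuf2 probeset 5362450 had 1 brain apart from the others: litter 5 stood at 8.59 on the log2 scale, the other 5 between 8.82 and 8.95, and the gap took 0.65 of the range. It was the only such case among 64 groups of 6 brains tested over 14 probesets and 18 genes, where chance gives about 1 in 20. The KIS-ko brains lay below all 6.

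Uap1 probeset 4994740 was outside the comparisons because its relative standard deviation in KIS-ko, 0.526, was above the limit. Its signals ran from 432 to 691 in wildtype (median 541) and from 85.2 to 346 in KIS-ko (median 148), with litter 4 the highest of the latter. The genotypes did not overlap, and the log2 difference was -1.70, lower in 6 of 6 litters. Without litter 4 the probeset was kept and passed the adjusted test.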

How the results depend on the processing

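With 6 pairs, moderated variances and adjustment over the whole array set how many members are called. The count of member probesets called was 1; it was 2 without the litter block, with a pseudocount of 64 and with arrays centred on their medians (26, 23 and 16 over all probesets, against 10), 13 with trend and robust moderation (92 over all) and 0 without moderation (0 over all; 85 members at an unadjusted p under 0.05), and 1 to 2 with each litter left out (2 without litter 4). With the relative standard deviation limited to 0.2, with dim probesets left out and with only probesets matching 1 place the count was again 1, but the Ddr2 probeset 4948326 was not tested and the called probeset was another (Nuf2 5362450, Ddr2 4756773 and Nuf2 4854867). The count of member genes called was 0, and 1 (Rgs4) with dim probesets left out, where its 2 probesets at the 5′ end were dropped. Probesets apart from their gene numbered 1, but 2 without the litter block and 0 with the relative standard deviation limited to 0.2, with only probesets matching 1 place and without moderation; with dim probesets left out the 1 was Rgs5 5384265. Non-overlapping members numbered 14, 8 with dim probesets left out and 15 to 39 with 1 litter left out. The 39 of 800 came without litter 4 (2.84% of all probesets) and 24 of 801 without litter 5 (0.923%). With dim probesets left out, counts of non-overlapping and of small unadjusted p-values within 1 Mb were 6 and 19 (of 27 probesets), and those of small p-values from 1 to 9 and from 9 to 10 Mb were 18 and 14, from fewer probesets tested; these distance counts were chosen after seeing the data. With 1 litter left out they were 11 to 14, 30 to 37, 25 to 100 and 17 to 34. The block moved no other count of members by more than 1.5 times.

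Among named genes and the probesets named Aph1a, signs turned for some whose differences did not pass the adjusted test, BC055324 (-0.16) and Mrps14 (-0.18) among them. With arrays centred on their medians Aph1a gave 0.041, Dnm3 0.040, F5 0.034 and Mael 0.012; with arrays quantile-normalized again Aph1a gave 0.026, Dnm3 0.012 and F5 0.020. With the stricter spread limit F5 gave 0.015, Mael 0.025 and Mrps14 0.014, and by the median over probesets Aph1a gave 0.037. With dim probesets left out BC055324 gave 0.12 and F5 0.13, each from the only probeset of the gene that remained (4758922 and 4324118). With 1 litter left out Adcy10 ran from -0.0028 to 0.038, Aph1a from -0.032 to 0.0050, Dnm3 from -0.037 to 0.0024 and F5 from -0.034 to 0.0017. The cause was not tested.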
